A study of Rattus norvegicus with 15 samples.

Results

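Core circRNAs of rat blood are the circular RNAs that were listed above 0 in every library of a deep venous thrombosis time course. They were chosen as the rows above 0 in all 15 libraries (886 of 43472 circRNAs), leaving out the 7 with the highest means, which left 879, or 2.02% of the table. Members were chosen by their measured SRPBM values (defined below), so presence in every library is the rule and not a result. No member holds a 0, and their levels and ratios are given here without a pseudocount. Names are running numbers after the prefix CBT15_circR_. The table gives no host gene, coordinate or sequence beside them, so no sequence is shown and blood cell markers could not be checked.

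Whole blood came from male Sprague-Dawley rats, 6 to 8 weeks old and of 250 to 300 g. Of deep venous thrombosis (DVT), in which a clot forms in a deep vein, the libraries cover a sham group (0 h) and 4 times after modelling: 1 h, 6 h, 12 h and 3 d (72 h), each with 3 libraries. How the thrombosis was modelled is not in the labels, nor whether each library is its own animal, so p-values here measure only the spread between these libraries, which may be technical. The titles carry a prefix ending in A&B for sham, 1 h and 3 d and a prefix ending in C for 6 h and 12 h, so these times and the title prefix cannot be told apart in a comparison of 6 h or 12 h with sham.

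A circRNA forms when the splicing machinery joins a downstream donor to an upstream acceptor. The closed loop has no free ends, which protects it from the enzymes that degrade linear RNA from an end, and circRNAs can therefore outlast the linear transcripts of the same gene. Blood is known as a circRNA-rich tissue, and platelets and red cells, which have no nucleus to make new RNA, are known to carry many of them. In bulk blood, fewer cells of a type and less of an RNA per cell cannot be told apart.

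A level in SRPBM is the number of reads across a back-splice junction for every 1e9 reads mapped in that library. Mapped reads, recovered from the steps between values, came to 66.0 to 92.4 units of 1e6 reads, and the median member had 23 to 96 back-spliced reads in a library. Reads are not independent molecules, so counting error given here covers sampling of reads only. Sham replicate 2 and 1 h replicate 1 stood apart from the rest. They listed 2958 and 2551 circRNAs against 9354 to 15366 in the other 13 libraries, and results that rest on them are given with and without them.

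Membership was decided mostly in these 2 libraries. Of 2880 circRNAs listed in all the other 13 libraries, 886 were listed in both. A further 370 were missing in sham replicate 2 only, 454 in 1 h replicate 1 only, and 1170 in both. Of the 892 circRNAs listed in exactly 14 libraries, 68 were missing in a library other than this pair. Those 2 libraries had 1106 circRNAs in common, of which 80.1% were listed in all 15.

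The share listed there was higher at higher levels. Among circRNAs with a mean under 250 SRPBM in the other 13 libraries, 7.49% (exact 95% interval 6.05 to 9.15) were listed in both, 88 of 1175. The share was 48.4% (43.7 to 53.1) at 500 to 1000 SRPBM, 92.7% (86.7 to 96.6) at 2000 to 4000 SRPBM, and 100% (88.4 to 100) of the 30 rows at 8000 SRPBM or above. High level did not secure a listing in each case. The 3 highest rows just outside the rule, CBT15_circR_2877, CBT15_circR_13660 and CBT15_circR_11328, had means of 5777, 5624 and 4092 SRPBM and were all listed at 0 in 1 h replicate 1 alone. CBT15_circR_2877 lay at 500 to 11441 SRPBM in the other 14 libraries.

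**Figure D1:**
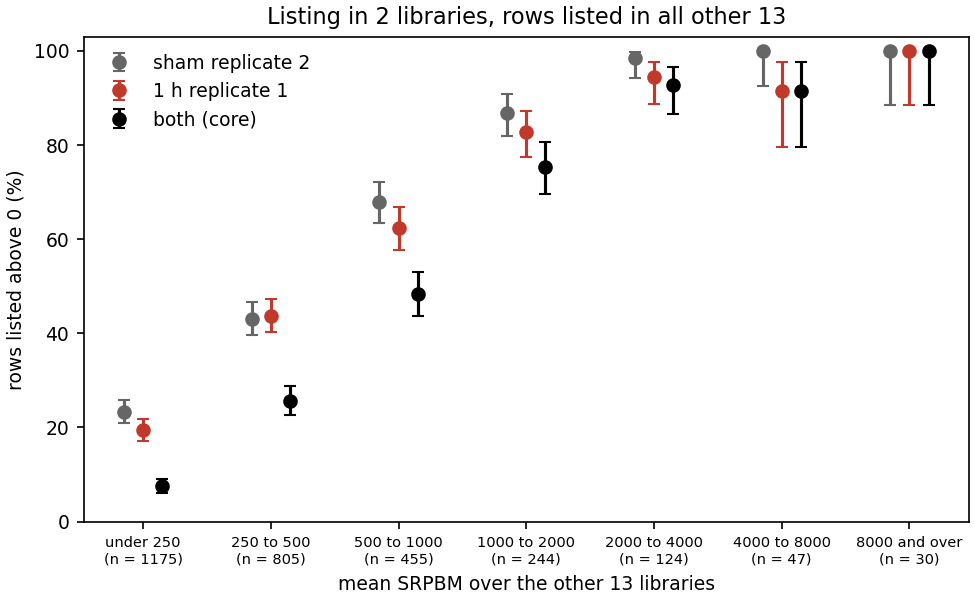
Percent of circRNAs listed above 0 in sham replicate 2, in 1 h replicate 1 and in both (y axis), by mean SRPBM over the other 13 libraries (x axis), among the 2880 circRNAs listed in all 13; bars are exact 95% binomial intervals. The share listed in both climbs from 7.49% under 250 SRPBM to 100% at 8000 SRPBM and above.

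Just inside the rule, the 3 members with the fewest reads were CBT15_circR_5577, CBT15_circR_33876 and CBT15_circR_8408, each with a lowest value of 2 reads, the smallest the table lists. CBT15_circR_5577 had the lowest mean of all members, 71.9 ± 33.6 SRPBM (SD, n = 15), and ranged from 22.5 to 135 SRPBM. Most members were deeper. In all, 602 of the 879 had at least 10 reads in every library, and 4.80% of the 13185 member values rested on fewer than 10.

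Mean levels of the core circRNAs spanned 265-fold, from 71.9 to 19033 SRPBM, with a median of 778 and quartiles of 402 and 1568 SRPBM. At the upper end, 13 members averaged at least 10000 SRPBM, 337 lay at 1000 to 10000 and 529 below 1000. Signal was spread over many members: the 10 highest held 11.6% of it and 118 members held 50%. The 7 rows set aside by the rule lay above them all, with a lowest mean of 19121 SRPBM.

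In the 13 other libraries the core took 3.28% to 18.7% of all circRNA signal, and in sham replicate 2 and 1 h replicate 1 it took 37.6% and 38.0%. With the 10 highest circRNAs of the table set aside, it took 46.1% to 54.8% of the signal in the 13 libraries, against 67.2% and 69.4% in the pair. Its summed signal was 1.15 M in sham replicate 2, between the 1.05 and 1.24 M of the other sham libraries (M stands for 1e6 SRPBM). In 1 h replicate 1 it was 0.614 M, against 1.43 and 1.85 M in the other 1 h libraries. The share was thus higher in both, while the level was lower in 1 h replicate 1 only. The higher share is in part set by the rule, since members had to be listed in this pair. The core made up 29.7% and 34.5% of the circRNAs listed there, against 5.72% to 9.40% in the 13 other libraries.

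**Figure D2:**
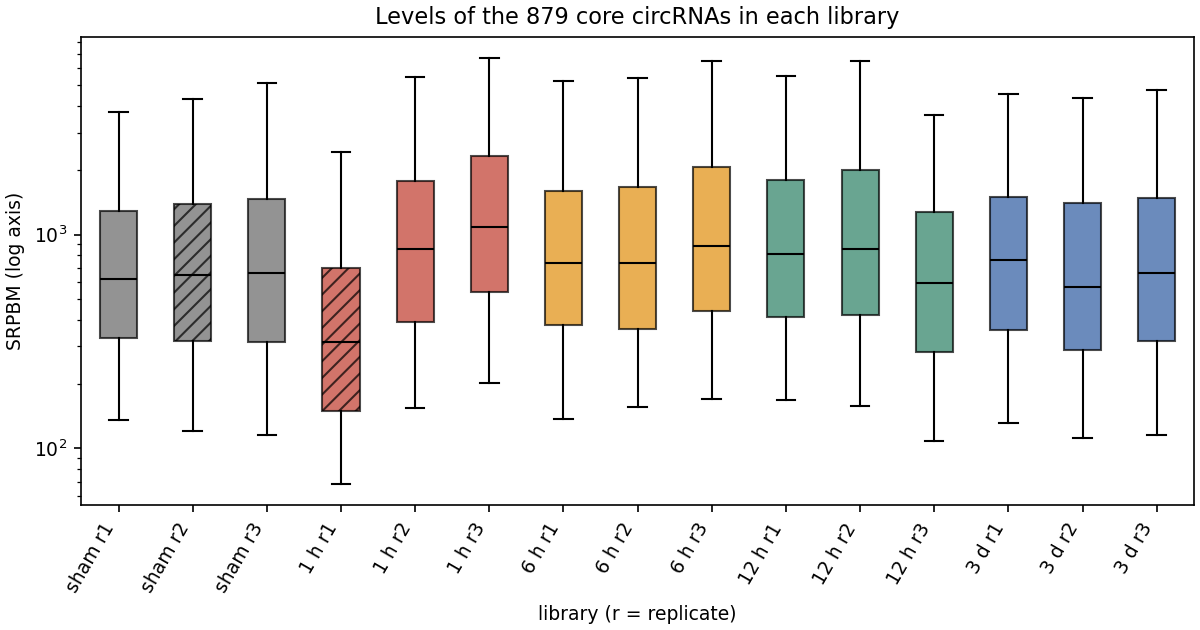
SRPBM of the 879 core circRNAs in each of the 15 libraries (log y axis); boxes give quartiles and median, whiskers the 5th and 95th percentiles, and hatching marks sham replicate 2 and 1 h replicate 1. The median lies at 314 SRPBM in 1 h replicate 1 and at 568 to 1081 in the other 14 libraries.

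The median member lay at 621, 651 and 661 SRPBM in the sham libraries, at 314, 854 and 1081 at 1 h, and at 735, 736 and 889 at 6 h. It lay at 816, 861 and 595 at 12 h and at 764, 568 and 664 at 3 d. All 3 libraries at 6 h were above all 3 sham libraries, and the other groups overlapped with sham. Averaged over 3 libraries with their SD, the sham group had a median member of 644 ± 21.2 SRPBM and the 3 d group of 665 ± 97.9 SRPBM. The 1 h, 6 h and 12 h groups lay higher by mean, with 749.6 ± 394, 787 ± 88.7 and 758 ± 142 SRPBM. Their difference from sham was smaller than the group's own SD at 1 h and 12 h and larger than it at 6 h. Without 1 h replicate 1 the 1 h mean was 968 ± 160.3 (SD, n = 2), above every other group mean.

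Across the 879 members, 1 h replicate 1 lay below the geometric mean of its group mates for 755, and at least 2-fold below for 553. Its median member was lower by 1.43 on the log2 scale than in those mates (log2 ratio -1.43). In sham replicate 2, 453 members lay below the mates and the median log2 ratio was -0.058, but 185 members were at least 2-fold above and 186 at least 2-fold below. So 1 h replicate 1 was low across the core, while sham replicate 2 had members displaced both ways, as did sham replicate 3 (209 above and 169 below its mates, which include sham replicate 2). In both libraries together, 157 members were at least 2-fold below their mates and 8 at least 2-fold above.

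The order of members was otherwise alike between libraries. Across the 879 members, Spearman's rho between 2 of the 13 other libraries ran from 0.78 to 0.935 with a median of 0.87 (78 pairs). It ran from 0.42 to 0.725 between a library of the pair and another (26 pairs), and was 0.66 between the pair itself. For 7 of the 15 libraries the best-matching library was of the same group. Among the 13, pairs within a group had a median of 0.89 (11 pairs) and pairs between groups 0.87 (67 pairs). Members are not independent replicates, and all libraries share the counting of low members, so these values are descriptions.

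The ranking at the top also held over time. Of the 50 members highest at sham by geometric mean, 40 were among the 50 highest at 1 h, and 37, 36 and 39 were so at 6 h, 12 h and 3 d. Without the pair of sparse libraries these counts were 42, 41, 41 and 43. The groups after modelling share the sham libraries in this count.

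Among the 10 highest members, CBT15_circR_6871 led with 19033 ± 6278 SRPBM (SD, n = 15). It lay at 16235, 16550 and 14731 SRPBM at sham, 7666, 20608 and 30762 at 1 h, 17531, 21097 and 29729 at 6 h, 20719, 27474 and 13734 at 12 h, and 17650, 15338 and 15667 at 3 d. All its 6 h libraries were above its sham libraries, and the 1 h and 12 h libraries fell on both sides. CBT15_circR_10908 came next at 18218 ± 3152 SRPBM, and was the steadiest of the 10, with its highest library 1.81-fold its lowest.

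The other 8 averaged from 11153 SRPBM (CBT15_circR_26544) to 16076 SRPBM (CBT15_circR_9091). CBT15_circR_22130, CBT15_circR_36691, CBT15_circR_9091, CBT15_circR_26544 and CBT15_circR_33733 were lowest in 1 h replicate 1, at 3151, 3437, 2578, 5933 and 7134 SRPBM. CBT15_circR_1442 was not: its 1 h values were 11799, 20205 and 30266 SRPBM, and its lowest library was 3 d replicate 3 with 6550 SRPBM. CBT15_circR_39984 was lowest in the pair, at 1317 SRPBM in sham replicate 2 and 2483 SRPBM in 1 h replicate 1. In the other 13 libraries it lay between 10165 and 24051 SRPBM, a 2.37-fold range. CBT15_circR_16730 was lowest in sham replicate 2 at 4315 SRPBM, and highest in 6 h replicate 1 at 26353 SRPBM.

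Stability was measured for each member by the coefficient of variation (CV), the SD of its SRPBM over the 15 libraries as a percent of the mean. The median CV was 44.2%, with quartiles of 37.8% and 52.3%. Counting error alone would give a median CV of 12.4%, and 867 of the 879 members varied at least 1.5 times as much as their own counting error. Without sham replicate 2 and 1 h replicate 1 the median CV was 37.4%, with 854 of the 879 at least 1.5 times their counting error. After scaling each library by the median ratio of the circRNAs listed in every library, the median CV over 15 libraries was 40.8%. Scaling the libraries thus removed a small part of the spread.

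Spread fell with level, but less than counting error did. Members under 500 SRPBM (294) had a median CV of 49.4% against 19.2% from counting, and those at 5000 SRPBM or above (40) had 38.8% against 3.89%. Over the 15 libraries, 5 members stayed within 2-fold, 158 within 4-fold, and 250 ranged over more than 10-fold. Over the 13 other libraries these counts were 25, 451 and 55. Within groups, the median CV was 47.1% at sham and 55.6% at 1 h, the groups with a sparse library, and 26.1%, 30.1% and 30.4% at 6 h, 12 h and 3 d (n = 3 each). Between-group variance exceeded within-group variance, each per degree of freedom, in 416 of the 879 members, with a median ratio of 0.95.

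**Figure D3:**
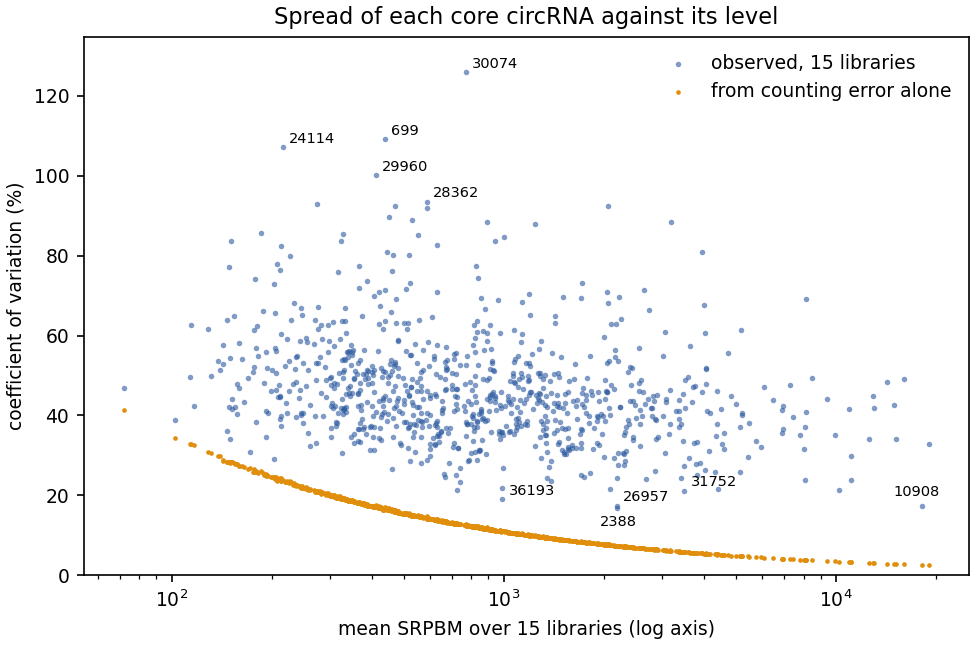
Coefficient of variation over 15 libraries (y axis, percent) against mean SRPBM (log x axis) of each of the 879 core circRNAs, with the value that counting error alone would give; numbers mark the 5 least and 5 most variable members. Observed values have a median of 44.2% and counting error 12.4%.

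The 5 steadiest members were CBT15_circR_2388, CBT15_circR_10908, CBT15_circR_26957, CBT15_circR_36193 and CBT15_circR_31752, with CVs of 16.9%, 17.3%, 17.5%, 19.0% and 21.2%. CBT15_circR_2388 lay at 2099, 2090 and 2389 SRPBM at sham, 2523, 2029 and 2736 at 1 h, 2389, 2185 and 2546 at 6 h, 2169, 2481 and 1613 at 12 h, and 2484, 1694 and 1471 at 3 d. Its values overlapped between all groups, and 1 h replicate 1 was among its higher libraries. CBT15_circR_10908 lay at 16145, 22636 and 16877 SRPBM at sham, 18605, 18129 and 21225 at 1 h, 16313, 18913 and 21797 at 6 h, 21244, 22591 and 14524 at 12 h, and 16862, 12529 and 14874 at 3 d. Both sparse libraries held it at the level of their mates or above.

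CBT15_circR_26957 averaged the same 2193 SRPBM as CBT15_circR_2388, and its highest library was 1.78-fold its lowest, the narrowest range of all members. CBT15_circR_36193, at a mean of 991 SRPBM, had a counting CV of 11.0%, closer to its observed 19.0% than for the other 4. Steadiness across these libraries is what chose these 5, so their values are a description.

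At the other end, CBT15_circR_30074 had the highest CV, 126%. It lay at 417, 121 and 522 SRPBM at sham, 68.2, 2349 and 3693 at 1 h, 494, 519 and 670 at 6 h, 704, 668 and 271 at 12 h, and 490, 256 and 289 at 3 d. The high values were those of 1 h replicates 2 and 3, and the lowest was 1 h replicate 1. CBT15_circR_24114 (CV 107%) was high in 6 h replicates 2 and 3, at 821 and 719 SRPBM, and lay at 34.0 to 259 SRPBM elsewhere.

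The other 3 of the 5 most variable members peaked in sham replicate 2. CBT15_circR_699 lay at 2105 SRPBM there and at 125 to 593 SRPBM in the rest, CBT15_circR_29960 at 1772 SRPBM there and at 54.6 to 694 SRPBM in the rest, and CBT15_circR_28362 at 2392 SRPBM there and at 157 to 890 SRPBM in the rest. Without the sparse pair their CVs fell from 109%, 100.1% and 93.5% to 41.9%, 49.7% and 52.0%. For CBT15_circR_30074 and CBT15_circR_24114 the CVs stayed at 115% and 114%.

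Change over time was asked of each member in 1 limma fit over the whole table (16767 circRNAs above 0 in at least 3 libraries, log2(SRPBM + 23.2), Benjamini-Hochberg adjustment over all of them). In a test of any difference among the 5 groups, limma called 1 of the 879 core circRNAs at an adjusted p under 0.05, or 0.114%, against 0.179% of all circRNAs tested. The median log2 change over all circRNAs tested, on the scale of that fit, was 0.11, 0.46, 0.43 and 0.20 against sham for the 4 times in order, 0.39 for the 4 times averaged, 0.02 for 3 d against 1 h and -0.02 for 12 h against 6 h. These medians include values of 0 and depend on the pseudocount, so they are no yardstick for the ratios of members below. At 6 h the median was 1.55 with a pseudocount of 1 SRPBM and 0.09 with one 10-fold the main value. The core circRNA called was CBT15_circR_40456. It lay at 2234, 2044 and 11031 SRPBM at sham, 40.9, 6549 and 7026 at 1 h, 5480, 11490 and 15474 at 6 h, 9549, 22059 and 3972 at 12 h, and 6795, 7725 and 10401 at 3 d (limma adjusted p = 0.0303). The value of 40.9 SRPBM in 1 h replicate 1 stood for 3 reads, 539-fold below the highest library, and without that library limma gave an adjusted p of 0.452. With both sparse libraries left out the adjusted p was 0.871, where limma called 9 other members (1.02%, against 0.609% of all tested), and the 1 h geometric mean, 0.334 times that of sham with all libraries, was 1.37 times it.

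At 1 h, limma called 0 of the 879 against sham, against 0.0239% of all tested, and 4 members (0.455%) had an unadjusted p under 0.05, against 3.41% of all tested. The median member had a 1 h over sham ratio of 1.02, with 455 members above 1. With the sparse pair left out the ratio was 1.43 with 716 members above 1. Median-ratio scaling is set on the circRNAs listed in every library used, which with all 15 libraries are the core and the 7 set aside, and with 13 libraries the 2880 listed there. It moves all members of a library alike and centres the median of the set it uses, so no direction of the core is read from it. In those 13 libraries without scaling, 366 members (41.6%) had both 1 h libraries above both sham libraries, against 19.8% of all circRNAs, and 42 (4.78%) had both below, against 5.45%. With all libraries these shares were 2.28% higher and 2.05% lower, against 1.10% and 0.555% of all circRNAs. Groups of fewer libraries separate more easily without any difference, so shares with and without the pair are not alike, here and below. A circRNA at 0 in any library of a group cannot have that group higher without overlap, and members hold no 0. Shares of members and of all circRNAs without overlap are thus not like for like in any comparison.

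Limma called 4 members at 1 h without the pair, or 0.455% against 0.223% of all tested, and all 4 were higher, against 0.199% of all tested called higher. Of these, 2 are named here after their values were seen. CBT15_circR_30074, the member of highest CV, was at log2 change 2.60 (SE 0.58, limma adjusted p = 0.00995, 2 libraries against 2). CBT15_circR_14854 lay at 67.7 and 336 SRPBM in sham replicates 1 and 3 and at 866 and 1892 SRPBM in 1 h replicates 2 and 3 (log2 change 2.85, SE 0.65, limma adjusted p = 0.0114). The libraries left out held it at 1666 SRPBM in sham and 327 SRPBM at 1 h, the opposite order. With median-ratio scaling in addition, none of the 4 passed, and limma called 1 member, CBT15_circR_28177, as lower (adjusted p = 0.035), or 0.114% against 0.0723% of all tested. It lay at 327 SRPBM in 1 h replicate 3, but at 1792 SRPBM in 1 h replicate 2, near the 1972 SRPBM of sham replicate 3.

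By the rule for named members, CBT15_circR_24101 had the smallest p among those higher at 1 h. It lay at 79.0, 30.3 and 92.8 SRPBM at sham and at 423, 261 and 327 SRPBM at 1 h, with no overlap (log2 change 2.04, limma adjusted p = 1). This was a member of low level, with 2 to 31 reads a library. It was the reverse of the general picture, in that 1 h replicate 1 was its highest library.

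**Figure D4:**
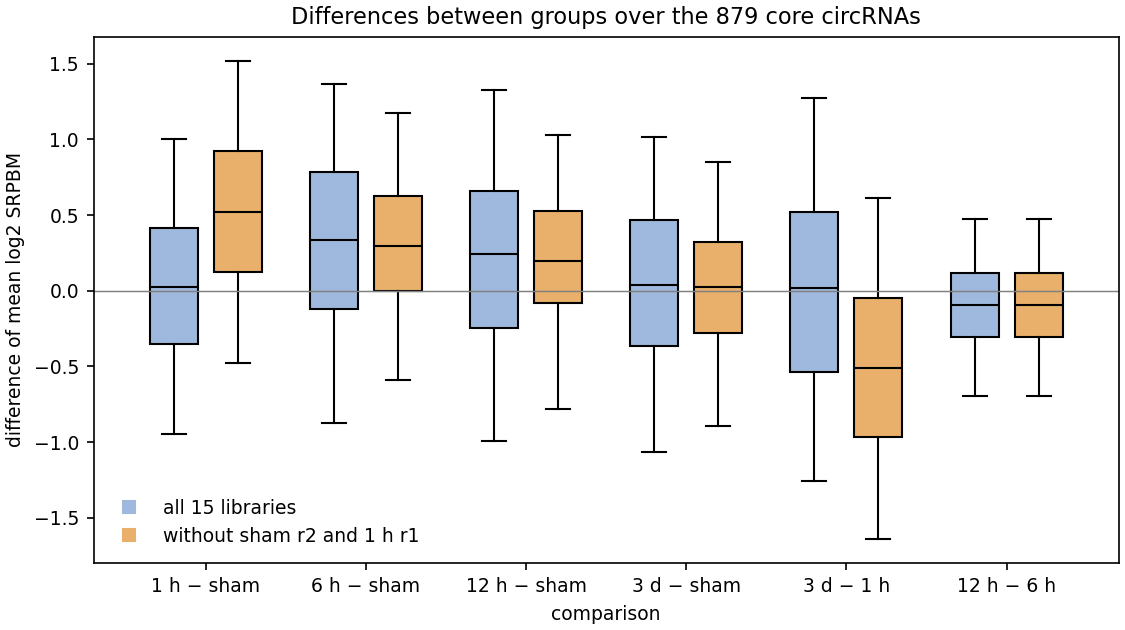
Differences of mean log2 SRPBM between groups (y axis) for the 879 core circRNAs in 6 comparisons (x axis), with all 15 libraries and without sham replicate 2 and 1 h replicate 1; boxes give quartiles and median, whiskers the 5th and 95th percentiles. Leaving out the pair moves the median of 1 h against sham from 0.027 to 0.52 and that of 3 d against 1 h from 0.021 to -0.51.

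At 6 h, limma called 0 of the 879 against sham (0.0477% of all tested), and 25 (2.84%) had an unadjusted p under 0.05, against 7.75% of all tested. The median ratio was 1.26, or 0.34 on the log2 scale, with 614 members above 1. The pooled SD of library medians within all 5 groups was 0.42 on that scale. It includes the 1 h group, whose libraries lay farthest apart and do not enter this ratio. Against each member's own mean, the median member lay at -1.02, 0.27 and 0.62 in the 1 h libraries. It lay at -0.09, -0.09 and 0.03 at sham and at 0.15, 0.14 and 0.41 at 6 h. The pooled SD is thus no measure of the spread within these 2 groups. Groups did not overlap and 6 h was higher for 107 members (12.2%), against 8.00% of all circRNAs, and lower for 20 (2.28%), against 0.590%. Only circRNAs listed in every sham library could be lower, and sham replicate 2 listed 2958 in all, which holds at 12 h and 3 d too. In the other 13 libraries 157 members (17.9%) were higher without overlap, against 9.02% of all circRNAs, and 36 (4.10%) lower, against 3.62%. 

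The smallest p among members higher at 6 h was that of CBT15_circR_17405, which lay at 925, 575 and 4698 SRPBM at sham, 3297, 7580 and 11343 at 6 h, and 5255, 8667 and 2944 at 12 h. Sham replicate 3 overlapped with both later groups (log2 change at 6 h 2.25, limma adjusted p = 0.64). Without 1 h replicate 1, which enters the shared spread, limma called 2 members at 6 h (0.228%, against 0.108% of all tested), this one among them (adjusted p = 0.0376). In the lower direction, CBT15_circR_6786 lay at 10684, 5693 and 1566 SRPBM at sham and at 1287, 1859 and 2291 at 6 h, and the groups overlapped.

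CBT15_circR_14518, chosen after its values were seen, was the member called at 6 h and 12 h without the sparse pair. It lay at 192, 833 and 916 SRPBM at sham, 532, 1068 and 766 at 1 h, 2091, 3259 and 3838 at 6 h, 3969, 3286 and 1191 at 12 h, and 1421, 936 and 1486 at 3 d. With all 15 libraries each library at 6 h, 12 h and 3 d was above each sham library, and 1 h overlapped. In the fit of all libraries its log2 change was 2.43 at 6 h (SE 0.78, limma adjusted p = 0.64) and 2.18 at 12 h (SE 0.78, adjusted p = 0.733). Without the pair it was 2.73 (SE 0.47, limma adjusted p = 6.58e-05) and 2.49 (SE 0.47, adjusted p = 0.000516), the only core call at either time (0.114% at each, against 0.145% of all tested at 6 h, 0.133% as higher, and 0.121% at 12 h, all as higher). With median-ratio scaling as well it kept both calls (limma adjusted p = 0.00174 and 0.00368). Limma then called 1 core circRNA at 6 h and 2 at 12 h (0.114% and 0.228%, against 0.0844% of all tested at each).

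At 12 h, limma called 0 of the 879 against sham (0.0477% of all tested), with 15 (1.71%) at an unadjusted p under 0.05, against 6.64% of all tested. The median ratio was 1.18, with 558 members above 1. Groups did not overlap with 12 h higher for 62 members (7.05%), against 6.43% of all circRNAs, and with 12 h lower for 27 (3.07%), against 0.573%. With sham replicate 2 and 1 h replicate 1 left out the counts were 99 higher (11.3%, against 7.15% of all circRNAs) and 39 lower (4.44%, against 3.99%). CBT15_circR_39639 had the smallest p among higher members, at 564, 121 and 2703 SRPBM at sham and 3008, 4645 and 2089 at 12 h, which overlapped (limma adjusted p = 0.733).

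CBT15_circR_34325 had the smallest p among lower members at 12 h, at 3 d and for the mean of the 4 times. It lay at 2234, 2332 and 2552 SRPBM at sham, 627, 2420 and 3659 at 1 h, 1447, 953 and 975 at 6 h, 581, 1178 and 260 at 12 h, and 597, 2608 and 202 at 3 d. All libraries at 6 h and 12 h were below all sham libraries, and 3 d replicate 2 was above them. Its log2 change at 12 h was -2.02 (limma adjusted p = 0.733). Without the sparse pair and with median-ratio scaling it was -2.32 and passed (limma adjusted p = 0.0431).

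At 3 d, limma called 0 of the 879 against sham (0.0537% of all tested), with 9 (1.02%) at an unadjusted p under 0.05, against 4.51% of all tested. The median ratio was 1.03, with 456 members above 1, and 1.02 without the sparse pair. Groups did not overlap with 3 d higher for 29 members (3.30%), against 3.64% of all circRNAs, and lower for 41 (4.66%), against 0.883%. Over the 13 other libraries 64 members were higher and 64 lower (7.28% each), against 4.16% and 5.70% of all circRNAs. The smallest p among higher members was that of CBT15_circR_39984, the abundant member that was low in both sparse libraries. At 3 d it lay at 14713, 14145 and 13359 SRPBM, above 10165, 1317 and 12748 SRPBM at sham (limma adjusted p = 0.952), and without sham replicate 2 its log2 change moved from 1.33 to 0.30. Without the sparse pair limma also called 0 members at 3 d (0.0422% of all tested), with 35 (3.98%) at an unadjusted p under 0.05, against 4.05% of all tested. In that fit 15.9% of members had such a p at 1 h against sham, 7.85% at 6 h and 5.92% at 12 h. All circRNAs tested had 6.77%, 5.21% and 4.41%, in that order. For the 4 times averaged the shares were 6.37% of members and 3.99% of all tested. For 3 d against 1 h they were 20.9% and 9.32%. Members were above all tested there, the reverse of the fit with all libraries.

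When the 4 times were averaged and set against sham, limma called 0 of the 879 (0.0358% of all tested), with 12 (1.37%) at an unadjusted p under 0.05, against 4.87% of all tested. The median ratio was 1.11. A single member had all 12 libraries after modelling above all sham libraries and another had all below (0.114% each, against 0.0537% of all circRNAs in each direction). Among the 13 other libraries 16 (1.82%) were above and 1 (0.114%) below, against 0.530% and 0.470%. CBT15_circR_34969 had the smallest p among higher members. It lay at 914, 45.4 and 2366 SRPBM at sham and at 1710 to 3378 SRPBM after modelling except for 150 SRPBM in 1 h replicate 1 (limma adjusted p = 0.704). Without 1 h replicate 1 limma called 5 members (0.569%, against 0.707% of all tested), all higher, with this one at an adjusted p of 0.0101. Without sham replicate 2 the log2 change of CBT15_circR_34969 moved from 1.86 to 0.37, so its size rested on that library. Without both sparse libraries limma called 1 member, CBT15_circR_14518, as higher (0.114%, against 0.145% of all tested called higher and 0.157% called at all).

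From 1 h to 3 d, both in title prefix A&B, limma called 0 of the 879 (0.0358% of all tested), with 29 (3.30%) at an unadjusted p under 0.05, against 4.92% of all tested. The median ratio was 1.01. Groups did not overlap with 3 d higher for 35 members (3.98%), against 3.17% of all circRNAs, and lower for 68 (7.74%), against 1.39%. Without 1 h replicate 1 and sham replicate 2 the median ratio was 0.702, and 344 members (39.1%) had all 3 d libraries below both 1 h libraries, against 16.0% of all circRNAs, and 40 (4.55%) had them above, against 3.29%. The 1 h libraries other than replicate 1 thus held most members at a higher level than at sham or 3 d. This was not particular to the core. With the 10 highest circRNAs set aside, its mean share of circRNA signal without the pair was 50.9% at sham, 50.0% at 1 h and 48.8% at 3 d.

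Without the pair, limma called 11 members between 3 d and 1 h, 10 lower (1.14%, against 0.337% of all tested) and 1 higher (0.114%, against 0.0542%), in all 1.25% against 0.392%. Those given here are named after their values were seen. CBT15_circR_30074 fell by 3.06 on the log2 scale (SE 0.53, limma adjusted p = 4.82e-05). CBT15_circR_20392 lay at 641, 2705 and 2511 SRPBM at 1 h and at 47.8, 1081 and 707 SRPBM at 3 d (log2 change -2.77, SE 0.56, limma adjusted p = 0.0014). CBT15_circR_28177 was the higher one. It lay at 3249, 4209 and 1972 SRPBM at sham, 3192, 1792 and 327 at 1 h, 3711, 3392 and 4496 at 6 h, 2102, 4611 and 2857 at 12 h, and 4060, 3255 and 4414 at 3 d (log2 change 2.29, SE 0.43, limma adjusted p = 0.000316). Its lowest value was that of 1 h replicate 3, while 1 h replicate 2 lay near sham replicate 3 and 12 h replicate 1. In 1 h replicate 1 it was at the level of the other groups. With median-ratio scaling in addition, limma called 3 members (0.341%, against 0.0844% of all tested), CBT15_circR_30074 and CBT15_circR_14854 lower and CBT15_circR_28177 higher (adjusted p = 0.000533, 0.0427 and 0.000492).

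**Figure D5:**
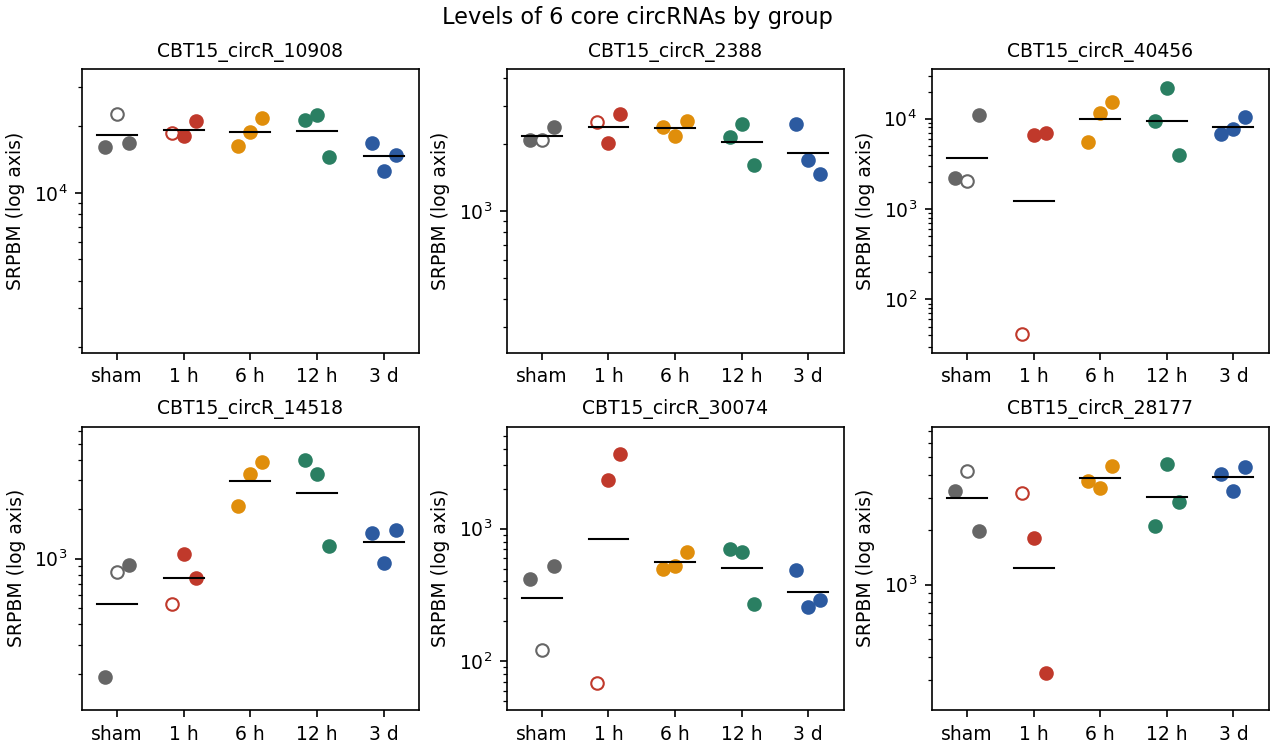
SRPBM (log y axis) of 6 core circRNAs in each library by group (x axis); open circles are sham replicate 2 and 1 h replicate 1, and lines are geometric means of 3 libraries. CBT15_circR_10908 and CBT15_circR_2388 vary within 1.86-fold, CBT15_circR_40456 drops to 40.9 SRPBM in 1 h replicate 1, and CBT15_circR_14518 is highest at 6 h and 12 h. CBT15_circR_30074 is high in 1 h replicates 2 and 3, and CBT15_circR_28177 is low in 1 h replicate 3.

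From 6 h to 12 h, both in title prefix C and with no sparse library, limma called 0 of the 879 (0.0119% of all tested), with 1 (0.114%) at an unadjusted p under 0.05, against 3.80% of all tested. Without the sparse pair, which enters the shared spread, it also called 0 (0.0301% of all tested), with 13 (1.48%) at an unadjusted p under 0.05, against 4.07% of all tested. The median ratio was 0.937, with 327 members above 1 and the middle 90% of members between -0.70 and 0.47 on the log2 scale, the narrowest of the comparisons. Groups did not overlap with 12 h lower for 47 members (5.35%), against 3.35% of all circRNAs, and higher for 12 (1.37%), against 2.21%. CBT15_circR_24114 had the smallest p among lower members, at 149, 821 and 719 SRPBM at 6 h and 123, 34.0 and 141 SRPBM at 12 h (limma adjusted p = 1). CBT15_circR_9403 had it among higher members, at 57.4, 24.1 and 171 SRPBM at 6 h and 414, 385 and 54.1 SRPBM at 12 h, which overlapped.

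The group with the highest geometric mean was 6 h for 324 members, 1 h for 205, 12 h for 162, sham for 121 and 3 d for 67. The lowest was 1 h for 271, sham for 226, 3 d for 213, 12 h for 109 and 6 h for 60. Without the sparse pair, 1 h was highest for 469 members and 6 h for 213, and sham was lowest for 321 and 3 d for 278. Which group led thus changed with the sparse pair. In 1 h replicate 1 402 members had their lowest value, and in 1 h replicate 3 258 members had their highest.

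Running numbers were the remaining feature the rule did not use. What orders them is not given in the sources used here. Rows whose number was 1 away from that of a member were counted once for each member they adjoin, 1758 in all. Of these, 88 (5.01%) were members, against 2.02% of the table, and 86 members had a member next to them. Across the 13 libraries other than the sparse pair, after median-ratio scaling, Spearman's rho between members 1 number apart had a median of 0.23 (44 pairs), and 22.7% were above 0.5. Pairs 2 and 3 numbers apart were much the same, with medians of 0.20 (30 pairs) and 0.34 (29 pairs) and 26.7% and 20.7% above 0.5. Over all 385881 pairs of members 7.17% were above 0.5, with a median of 0.00, and the scaling was set on these same members. All pairs share the same libraries, and these are descriptions. CBT15_circR_20392 and CBT15_circR_20393, both among the 10 members lower at 3 d than at 1 h without the sparse pair, were such neighbours. CBT15_circR_20393 is named here after its values were seen.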

How the data were processed

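CircRNAs of whole blood were measured in 15 libraries, 5 groups of 3, from paired-end 150 bp reads of total RNA (PAXgene blood RNA, NEBNext Ultra kit), per the labels' protocols. The authors deposited 1 table of signal in SRPBM, made with find_circ per the file's name. Bowtie 0.12.2 and the build Rnor_6.0 appear in the submitters' processing notes with no role. The thresholds behind a circRNA call are not given here. All values above 0 (100% within 0.01 read) were whole multiples of a step, 2 at least, which gave mapped reads and back-spliced reads. No 2 libraries held identical values (0 pairs).

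A limma model (version 3.58.1, R 4.3.3) with an abundance trend and all 5 groups together was fitted to log2(SRPBM + 23.2), the pseudocount being the median of the smallest values above 0. It was also run on simulated data with planted changes. Those data held no sparse library, so that run does not cover the effect of the pair. Levels and ratios of members use no pseudocount. Named members were the 10 highest, the 5 of lowest and of highest CV, the smallest p per direction in each comparison, and rows nearest the rule's limit; others are marked as chosen after their values were seen. The members and these rules were chosen with earlier results of these data known. No gene list could be applied. Replicate numbers are shared between groups in the labels, but were not used to pair libraries in the main fit.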

Additional observations from a re-analysis of the deposited data

How the results depend on the processing

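The count of core circRNAs called by limma was 0 in 7 comparisons and 1 in the test over all 5 groups. That 1 became 0 with a pseudocount of 1 SRPBM and with a filter of at least 12 libraries, where 0.00% of all tested were called. It became 0 with a pseudocount 10-fold the main value (0.125% of all tested) and with a filter of at least 8 libraries (0.0134%). It was also 0 with scaling to total circRNA signal without the 10 highest circRNAs (0.113%) and without the abundance trend (0.00596%). It became 4 with no filter (0.455%, against 0.0805% of all tested) and 2 with robust moderation (0.228%, against 0.119%). Without sham replicate 2 and 1 h replicate 1 the counts were 9 over all groups, 4 at 1 h, 1 at 6 h, 1 at 12 h, 1 for the mean of the 4 times and 11 for 3 d against 1 h. In that order these were 1.02%, 0.455%, 0.114%, 0.114%, 0.114% and 1.25% of members, against 0.609%, 0.223%, 0.145%, 0.121%, 0.157% and 0.392% of all tested. With median-ratio scaling of those 13 libraries, an alternative chosen after seeing the data, they were 7, 1, 1, 2, 1 and 3. With no filter, 1 was called for the mean of the 4 times and 1 for 3 d against 1 h (0.114% each, against 0.0253% and 0.0299% of all tested). Leaving out 1 library gave 0 to 3 over all groups, 0 to 2 at 1 h, at 6 h and for 3 d against 1 h, 0 to 5 for the mean of the 4 times, and 0 elsewhere. The 3 over all groups came without 1 h replicate 3 (0.341%, against 0.205% of all tested). The counts of 2 for 3 d against 1 h came without 1 h replicate 2 or without replicate 3 (0.228% each, against 0.137% and 0.103%). Those of 2, 2 and 5 for 1 h, 6 h and the mean came without 1 h replicate 1 (0.228%, 0.228% and 0.569%, against 0.114%, 0.108% and 0.707%). Calls over all circRNAs moved too: without the 2 libraries from 30 to 101 over all groups and from 6 to 65 for 3 d against 1 h, and without 1 h replicate 1 from 6 to 118 for the mean. The cause of these changes was not tested.

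The limma change of CBT15_circR_40456 at 1 h reversed from -1.37 to 0.45 without the 2 libraries and to 0.012 with median-ratio scaling in addition, and ran from -2.52 to 0.87 when 1 library was left out. In the test over all groups its limma adjusted p was 0.0914 with median-ratio scaling of all 15 libraries, against 0.0303. With a replicate block the test over all groups called 2 (0.228%, against 0.221% of all tested). Every other count stayed at 0, against 0.0179% to 0.0775% of all tested. Same-numbered libraries showed no clear tendency to deviate together (correlations of -0.41 to 0.34, median 0.042, 10 of 30 over 0.1). Libraries of other numbers had a median of -0.036, with 12 of 60 over 0.1. In all, 6 of 15 libraries correlated best with their own number. The planned count test on recovered reads was not run: the smallest value listed stands for 2 reads, the recovery was not accepted as a count table, and reads are used for description only. Fits of only the 2 groups compared called 0 in all 6 such comparisons, against 0.00% to 0.0377% of all tested. Depth limits members of few reads: 169 members had under 10 reads in 1 h replicate 1.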
